A study of Mus musculus with 4 samples.

Results

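Tanycytes of the adult mouse hypothalamus were taken as the nuclei that the deposited annotation places in the main cluster of astrocytes and in the sub-cluster of tanycytes. They numbered 1489 of 56386 annotated nuclei, and the main cluster held 9535. RNA of single nuclei was sequenced from the hypothalamus of 12 adult male mice on a C57/BL6NCr background, to ask which cell types depend on the thyroid hormone receptor TRα1. Wild-type mice were compared with TRα1+m mice, which carry the R384C point mutation in 1 of their Thra alleles in every cell and from conception, so that development and adult life were both affected. No treatment was given to either group. Each library held the pooled nuclei of 3 mice, and both genotypes were run side by side in 2 experimental repeats, so n = 2 libraries per genotype. The mutation exchanges a single amino acid, so the level of the Thra transcript does not check the genotype labels. Values of the 4 libraries are given throughout in the order wild-type repeats 1 and 2, then TRα1+m repeats 1 and 2, as CPM, UMI counts scaled to a common library total, where a UMI is a molecular tag that marks 1 captured transcript.

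Tanycytes are elongated glial cells that line the floor and the lower walls of the third ventricle. Their cell bodies face the cerebrospinal fluid and their processes reach into the hypothalamus or to the capillaries of the median eminence, where they take part in the barrier, in nutrient sensing and in the passage of hormones. Alpha tanycytes line the upper part of this wall and beta tanycytes its floor. Tanycytes are a known site of thyroid hormone uptake, of its activation by the deiodinase encoded by Dio2, and of the breakdown of thyrotropin-releasing hormone by the ectoenzyme encoded by Trhde.

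The libraries held 414, 389, 425 and 261 tanycyte nuclei with 931435, 1015250, 997206 and 591393 UMIs in total. The median nucleus held 2007 UMIs and 1373 genes, and the medians of the libraries were 1924, 2295, 1832 and 2125 UMIs. Mitochondrial transcripts made up 2.44, 2.26, 2.43 and 1.82% of the UMIs. The second TRα1+m library thus held the fewest nuclei and UMIs and the lowest mitochondrial share. No barcode of a tanycyte nucleus occurred in more than 1 library. The p-values below measure the spread between these pooled libraries.

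Genes known for tanycytes stood above the level of neighbouring astrocytes. Of 16 identity genes, 12 were higher than in the sub-cluster of 8007 astrocytes in all 4 libraries, as were 8 of 8 genes of beta tanycytes and 4 of 6 of alpha tanycytes. The nuclei were clustered on their transcripts, so differences between clusters are described and were not tested. Nnat, which encodes the small membrane proteolipid neuronatin, reached 3555, 4599, 3366 and 5999 CPM in tanycytes, 3.1 times its mean in astrocytes. Rax, the homeobox factor that defines tanycytes, was at 36.5, 68, 31.1 and 54.1 CPM, 9.52 times its mean of 4.98 CPM in astrocytes. The intermediate filament gene Vim was at 33.3, 38.4, 66.2 and 55.8 CPM against 26.1 CPM in astrocytes. By the ratio of mean levels Vim stood least above astrocytes of the 3 marker genes. A UMI of Rax was found in 9.74% of tanycyte nuclei, in 0.987% of astrocytes and in 0.733% of oligodendrocytes, at median depths of 2007, 1881 and 1605 UMIs. For Vim these shares were 9.54, 4.16 and 3.52%, and for Nnat 96.9, 84.4 and 54.5%. By the ratio of these shares it was Nnat that stood least above astrocytes. At least 1 of the 3 transcripts was present in 1452 nuclei (97.5%).

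Other transcripts stood further above astrocytes than the 3 marker genes, several of them mainly in some of the nuclei. Col25a1 and Col23a1, which encode transmembrane collagens, averaged 3974 ± 1888 and 2078 ± 823 CPM (SD, n = 4 libraries), 129 and 30.9 times the astrocyte mean. Col23a1 was detected in 84.7% of tanycyte nuclei, in 9.7% of astrocytes and in 11.3% of oligodendrocytes. Among genes of at least 50 CPM, the largest ratio to astrocytes belonged to Fndc3c1, a gene of fibronectin type III domains on the X chromosome, at 226 times, followed by Tll1, a secreted metalloprotease gene, at 217 times. The sodium channel gene Scn7a (89.6 times), the matrix gene Hmcn1 (85.3 times) and the growth factor gene Fgf10 (59.2 times) were also among the 20 largest. Dnah12, a dynein gene of cilia from the ependymal list, was among them at 65.6 times, as were Wdr63 at 88 times and the dynein gene Dnah11 at 52.7 times. The repeats varied widely in several of these genes. Fndc3c1 stood at 161, 657, 45.1 and 171 CPM and Tll1 at 210, 281, 123 and 407 CPM, so that in both genotypes the second repeat was the higher. Within tanycytes, divided into 7 sub-groups as described later, Fndc3c1 averaged 903 CPM in sub-group 3 and 48.4 CPM in the other nuclei, with 3.88 and 7.42 CPM in sub-groups 1 and 4 and no UMI in sub-group 5. Col25a1 was at 280, 3710, 12820 and 35.3 CPM in sub-groups 1 to 4, Scn7a at 29.9, 65.3, 2192 and 9.51 CPM, and Dnah12 at 3038 CPM in sub-group 5 against 14.6 to 434 CPM in sub-groups 1 to 4. Col23a1 was more even, at 2430, 2875, 2507 and 1431 CPM in sub-groups 1 to 4, and was at 122 CPM in sub-group 5.

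**Figure D1:**
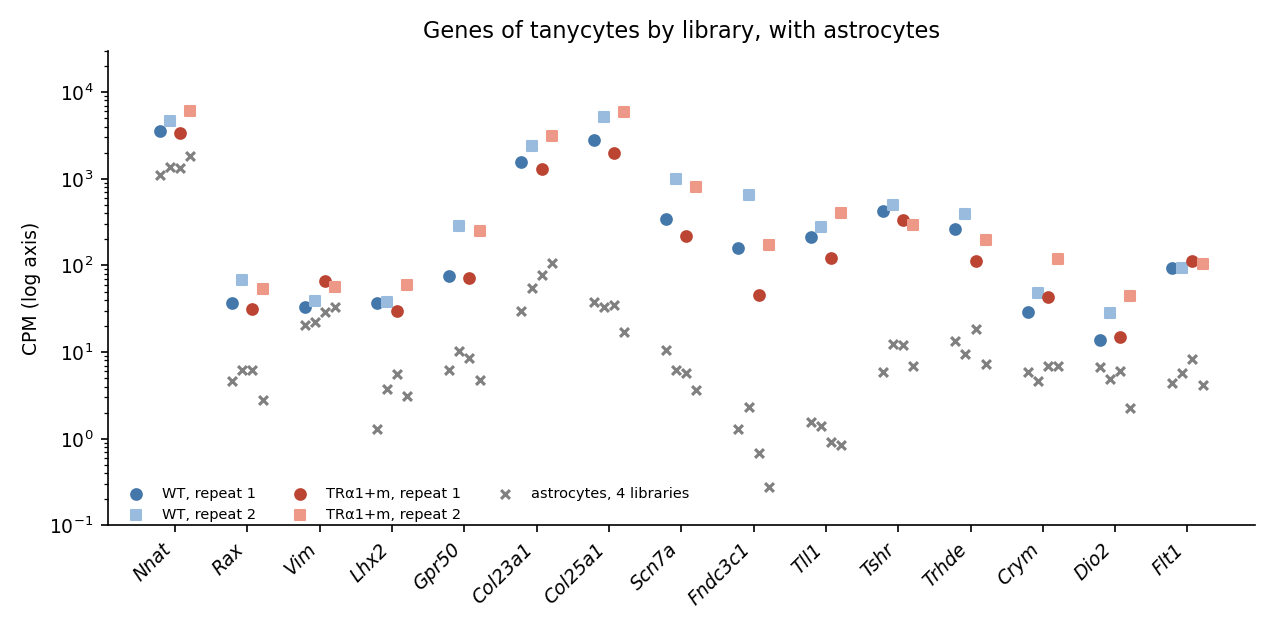
CPM on a log axis for 15 genes in tanycytes of each of the 4 libraries (filled symbols) and in astrocytes of the same libraries (crosses, in the same order of libraries). Tanycytes lie above astrocytes in every library for these genes, by 1.85 times in the mean for Vim and by 226 times for Fndc3c1.

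The transcripts of other cell types did not all stay at the astrocyte level. Ciliated ependymal cells are the neighbours of tanycytes in the ventricular wall, and 14 of 14 of their genes were higher in tanycytes than in astrocytes in all libraries, with summed levels of 4988, 2122, 6929 and 2428 CPM against a mean of 271 CPM in astrocytes. Spag16, a gene of the ciliary axoneme, was the most abundant of them at 879 ± 317 CPM. Of 1489 nuclei, 1161 (78%) held UMIs of at least 2 distinct ependymal genes. The 9 astrocyte genes were lower than in astrocytes in every library (summed mean 2693 against 9493 CPM), and Agt, which encodes angiotensinogen, was detected in 18.1% of tanycyte nuclei against 78.4% of astrocytes. The endothelial receptor gene Flt1 stood at 93.4, 94.6, 112 and 105 CPM, 17.9 times its astrocyte mean, while the vascular genes Cldn5, Rgs5 and Vtn were at 5.5, 4.62 and 6.25 CPM, close to astrocytes. The 6 microglial genes summed to 174, 119, 157 and 130 CPM against a mean of 132 CPM in astrocytes, and 1 of them, the receptor gene Cx3cr1, was higher in all libraries, at 41.9 ± 12.7 CPM against 11.4 CPM. P2ry12 was at 26.1 against 23.5 CPM, C1qa at 13.3 against 19.2 CPM and Csf1r at 4.9 against 6.08 CPM. Oligodendrocyte genes summed to 1166 CPM in tanycytes and 1096 CPM in astrocytes, neuronal genes to 748 and 800 CPM, and genes of pituitary cells to 48.5 and 66.5 CPM. Genes of vascular and leptomeningeal cells summed to 25.1 and 40.7 CPM. Of the precursor genes of oligodendrocytes only Vcan stood out (206 ± 32.2 CPM against 15.5 CPM in astrocytes), and Vcan is also a gene of the alpha tanycyte list.

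Several genes of the thyroid axis stood far above astrocytes in these nuclei, and a transporter stood below them. The thyroid hormone transporter OATP1C1, encoded by Slco1c1, was at 23.6, 21.7, 36.1 and 18.6 CPM against 164 CPM in astrocytes. Tshr, the receptor of thyrotropin, was at 427, 498, 335 and 294 CPM, 41.5 times the astrocyte level, with a UMI in 49.7% of tanycyte nuclei and 1.57% of astrocytes. Trhde was at 264, 387, 113 and 194 CPM (19.7 times). Crym, which encodes a cytosolic protein that binds thyroid hormone, was at 29, 48.3, 43.1 and 118 CPM (9.75 times). Dio2 was at 14, 28.6, 15 and 44 CPM (5.13 times), with a UMI in 4.97% of tanycyte nuclei, 0.974% of astrocytes and 0.163% of oligodendrocytes. The inactivating deiodinase gene Dio3 averaged 0.246 CPM, and no UMI of Dio1 was found in any tanycyte nucleus, which allows a level of up to 0.849 CPM. Tshr, Trhde, Crym and Dio2 were thus higher in tanycytes and Slco1c1 was higher in astrocytes.

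Tanycyte nuclei were divided into 7 sub-groups by Leiden clustering of their log-normalised counts, centred per library. Sub-group 1, with 432 nuclei (29%), held the highest levels of the alpha tanycyte genes Vcan (470 CPM), Slc7a11 (685 CPM) and Nr2e1 (25.7 CPM), and was led by Prr16, Col6a3 and Sema3a. Sub-group 4, with 266 nuclei (17.9%), held 3 of 6 alpha genes at their highest, among them Cd59a (92.5 CPM) and Slc17a8 (50.9 CPM), and was led by Slc17a8, Actn2 and Gsg1l. Both are therefore called alpha-like. Rspo3, a Wnt signalling enhancer placed in the beta list, was also highest in sub-group 4 at 269 CPM. Sub-group 3, with 276 nuclei (18.5%), held 5 of 8 beta genes at their highest and summed to 16238 CPM over the list, against 757 and 871 CPM in the alpha-like sub-groups 1 and 4. Col25a1 reached 12820 CPM there and Scn7a 2192 CPM, and its leading genes were Gm5127, Gxylt2, Cysltr1, Ano5 and Scn7a, so it is called beta-like. Sub-group 2, with 332 nuclei (22.3%), lay between them with 3710 CPM of Col25a1 and 283 CPM of Vcan, was led by Grin3a, Adam23 and Frzb, and was left unnamed.

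The last 3 sub-groups carried the transcripts of other cells. Sub-group 5, with 111 nuclei (7.45%), held 13 of 14 ependymal genes at their highest (summed 14158 CPM; Dnah12 3038 CPM) and was led by Dnah3, Gm47888 and Dthd1. Rax was at 2.24 CPM there and Col23a1 at 122 CPM, against 27.1 to 72.5 CPM and 1431 to 2875 CPM in sub-groups 1 to 4. Lhx2, a tanycyte homeobox gene, was at 1.32 CPM against 31.8 to 53.1 CPM. Vim at 150 CPM (19 to 50.9 CPM in sub-groups 1 to 4) was not low. Nnat averaged 3190 CPM (3175 to 5536 CPM in sub-groups 1 to 4), from 2028, 2647, 2635 and 5449 CPM in the 4 libraries. The last value rests on 6 nuclei, while the 45 and 53 nuclei of repeat 1 gave 2028 and 2635 CPM. The whole identity list summed to 3876 CPM there and to between 7585 and 9755 CPM in sub-groups 1 to 4, with 2 of 16 genes, Vim and Nes, at their highest in sub-group 5. Nes was at 10.6, 0, 7.31 and 70.8 CPM on 2, 0, 2 and 1 UMIs, so its mean rests largely on 1 UMI. Rax, Lhx2 and Col23a1 thus go against the label of tanycytes and Vim does not, while the mean of Nnat depends on TRα1+m repeat 2. The sub-group is called ependymal-like from its ependymal genes. The 42 nuclei of sub-group 6 (2.82%) had 8 of 9 astrocyte genes at their highest together with 31.3 CPM of Rax, which rests on 1, 1, 3 and 0 UMIs. Sub-group 7, with 30 nuclei (2.01%), had 6 of 6 oligodendrocyte genes at their highest together with 48.5 CPM of Rax, which rests on 0, 5, 0 and 1 UMIs. Median depths of sub-groups 6 and 7 were 3706 and 3352 UMIs, above the 2007 UMIs of all tanycyte nuclei, and both were left unnamed. Of the 53 nuclei over 5000 UMIs, 27 were in the ependymal-like sub-group. The share of doublets in these sub-groups was not tested. Ependymal transcripts did not stop at sub-group 5, since sub-groups 1 to 4 together still held 2500, 2102, 3069 and 2265 CPM of them, with the lowest level in the beta-like nuclei (976 CPM).

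**Figure D2:**
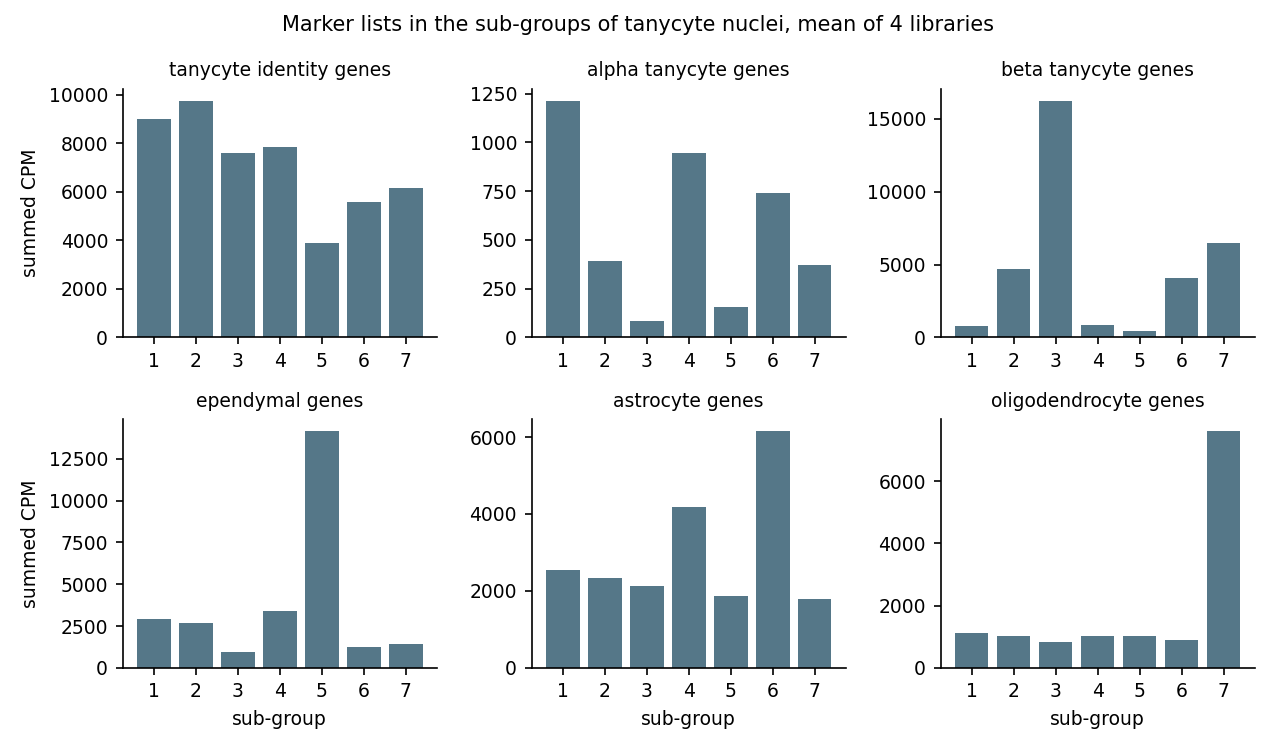
Summed CPM of 6 marker lists (panels) in the 7 sub-groups of tanycyte nuclei, as means of 4 libraries. Beta genes peak in sub-group 3 at 16238 CPM, ependymal genes in sub-group 5 at 14158 CPM and oligodendrocyte genes in sub-group 7.

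The thyroid axis genes were spread unequally over the sub-groups. Trhde reached 551 CPM in sub-group 3 and between 95.9 and 192 CPM in the other 3 large sub-groups. Dio2 was highest in sub-group 3 at 63.7 CPM, and no UMI of it was found in the 266 nuclei of sub-group 4, which allows a share of up to 1.13% of nuclei with a UMI. Tshr was spread more evenly, at 532, 364, 354 and 409 CPM in sub-groups 1 to 4. Crym was at 20.9 CPM in sub-group 3 and 20.3 CPM in sub-group 5, against 93.1, 101 and 51.7 CPM in sub-groups 1, 2 and 4. Flt1 was at 265 CPM in sub-group 4 and 155 CPM in sub-group 1, and at 3.35 and 5.39 CPM in the beta-like and ependymal-like nuclei. The nuclei were clustered on these genes among others, so these differences are a description.

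Tanycytes made up 2.83% (95% exact binomial interval 2.56 to 3.11%) and 2.92% (2.64 to 3.22%) of wild-type nuclei and 2.59% (2.35 to 2.84%) and 2.18% (1.93 to 2.46%) of TRα1+m nuclei. Means were 2.87 ± 0.0666% and 2.38 ± 0.287% (SD, n = 2 libraries), and both TRα1+m libraries lay below both wild-type libraries. An exact permutation test gave p = 0.333, two-sided, the smallest that 2 against 2 libraries allow. edgeR's quasi-likelihood test over 22 sub-clusters gave a log2 fold change of -0.27 (SE 0.31, adjusted p = 0.941). The intervals cover counting error only. Among sub-groups, the ependymal-like one took 10.9, 1.8, 12.5 and 2.3% of the tanycyte nuclei and the beta-like one 14, 26.7, 12.2 and 23.8%, and both shares followed the repeat and not the genotype. Alpha-like sub-group 4 took 20.5, 22.6, 14.4 and 12.3%, with both TRα1+m libraries below both wild-type libraries (exact permutation p = 0.333). Clustered again without 175 genes that differed between genotypes at an unadjusted p below 0.05 or with the repeat as a block, the matching cluster took 21.5, 22.4, 16.2 and 12.3% (exact permutation p = 0.333).

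**Figure D3:**
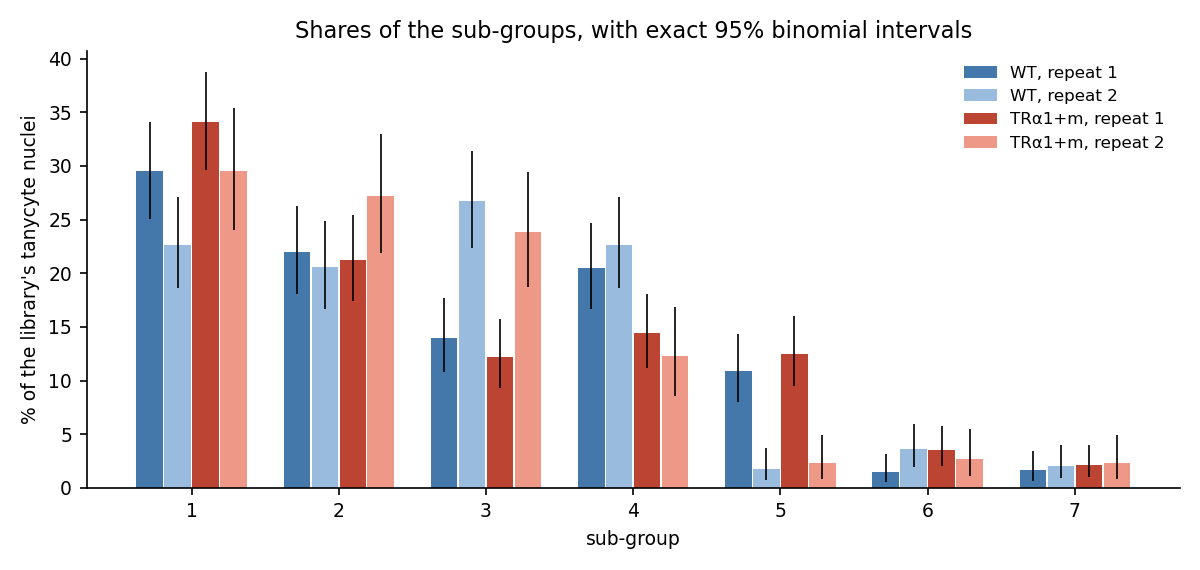
Share of each library's tanycyte nuclei in the 7 sub-groups, in percent, with exact 95% binomial intervals as lines. Sub-group 5 holds 10.9 and 12.5% in repeat 1 and 1.8 and 2.3% in repeat 2, while sub-group 4 is lower in both TRα1+m libraries.

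The repeats separated tanycyte nuclei widely. edgeR with genotype as a covariate called 1583 of 11217 genes (14.1%) between repeats, 592 (5.28%) higher in repeat 2 and 991 (8.83%) higher in repeat 1. Of 14 ependymal genes, 13 were higher in repeat 1 and 1, Mia, was higher in repeat 2, and 5 of 8 beta genes were called, all higher in repeat 2. Dnah12 stood at 764, 188, 1148 and 237 CPM and Scn7a at 342, 992, 221 and 796 CPM, with no overlap between repeats in either. Of the 20 genes with the largest ratio to astrocytes, 16 differed between repeats, 9 higher in repeat 1 and 7 in repeat 2. With nuclei of sub-groups 1 to 4 alone, 676 genes were called between repeats.

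Between genotypes, no gene that passed the filter on low counts was called over all tanycyte nuclei without a block. Without that filter edgeR called 7 of 20480 genes, among them Sgcz, Rbfox1, Dcc, Actn2 and Cysltr1 (adjusted p = 1.84e-09 to 0.016). Of 11217 genes, 0 (0%) had an adjusted p below 0.05 in edgeR's quasi-likelihood test, 155 (1.38%) had an unadjusted p below 0.05, and DESeq2 called 0, with 28 at an unadjusted p below 0.05. In 25.8% of all genes the 2 wild-type and the 2 TRα1+m libraries did not overlap, 11.6% higher and 14.1% lower in the mutant. When the repeat was fitted as a block, which pairs the libraries of a repeat and leaves 1 residual degree of freedom, 54 genes (0.481%) had an adjusted p below 0.05, 23 higher (0.205%) and 31 lower (0.276%). The 10 genes with the smallest p of the unblocked test, all in the same direction in both repeats, are described first, and their adjusted p is 1 in that test. All 10 were called with the block in edgeR, and in DESeq2 with the block only Sgcz and Dcc of them were (adjusted p = 1.03e-09 and 0.037), with 0.41 for Kirrel3, 0.124 for Rbfox1 and 1 for the other 6. With the block in edgeR, Osbp, Itih3 and Siah3 lost their calls in sub-groups 1 to 4 (adjusted p = 0.748, 0.655 and 0.12), among nuclei of at most 5000 UMIs (0.45, 0.589 and 0.475) and without nuclei with 2 oligodendrocyte genes (0.726, 0.357 and 0.419), as did Cysltr1 in the last (0.195) and Osbp with equal numbers of nuclei (0.218). The other 6 kept theirs in these 4 settings. In sub-groups 1 to 4 the log2 fold change of Siah3 with the block was -1.72, against -1.68 in all nuclei. For Osbp it was -0.72 against -1.31, and for Itih3 -0.65 against -0.96. Cysltr1 was at -1.62 with the block without nuclei with 2 oligodendrocyte genes, against -1.95 in all nuclei.

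Sgcz encodes zeta-sarcoglycan, a membrane protein of the sarcoglycan complex, and lies on chromosome 8 at 37522298 to 38661508 (minus strand, build GRCm38). It was at 1123, 1253, 403 and 289 CPM, a log2 fold change of -1.76 (SE 0.25, unadjusted p = 0.000304 in edgeR, adjusted p = 2.75e-17 with the block). Both TRα1+m libraries lay far below both wild-type libraries. Rbfox1, a neuronal splicing factor gene, was at 349, 391, 200 and 115 CPM (log2 fold change -1.21). Dcc, the receptor of the guidance factor netrin, was at 528, 760, 283 and 308 CPM (-1.11). Kirrel3, a cell adhesion gene, was the only one of the 10 that was higher in the mutant, at 201, 228, 412 and 404 CPM (0.94). Kirrel3 averaged 311 CPM in tanycytes, 995 CPM in astrocytes and 1208 CPM in oligodendrocytes. The wild-type and TRα1+m libraries did not overlap in any of the 10 genes. Their choice by the smallest p in these same libraries favours this, and 25.8% of all genes did not overlap. Sgcz, Rbfox1 and Dcc averaged 138, 208 and 109 CPM in astrocytes, 2864, 3501 and 1779 CPM in neurons, and 1826, 1930 and 2123 CPM in oligodendrocyte precursor cells. Dcc was at 629 CPM in oligodendrocytes as well, where Sgcz and Rbfox1 were at 163 and 159 CPM. Neuronal marker genes in tanycyte nuclei summed to 831, 811, 751 and 599 CPM, and Snap25, the one with the highest level, was at 294, 340, 229 and 238 CPM. Of these 8 genes, Snap25 and Rbfox3 were lower in the mutant without overlap (14.1% of all genes were), the median log2 fold change was -0.21, and none was called with the block. The part of neuronal RNA in the differences was not tested.

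Actn2, a gene of alpha-actinin that leads alpha-like sub-group 4, was at 33.3, 28.6, 5.01 and 5.07 CPM, which rests on 31, 29, 5 and 3 UMIs (log2 fold change -2.57). Cysltr1, the receptor of cysteinyl leukotrienes and a leading gene of beta-like sub-group 3, was at 31.1, 59.1, 10 and 11.8 CPM (-2.04). Neat1, the long non-coding RNA of paraspeckles, was at 109, 107, 56.2 and 54.1 CPM (-0.96), and in astrocytes its log2 fold change with the block was -0.76 (edgeR adjusted p = 0.00018). Neat1 and Itih3 were called with the block in astrocytes too. Itih3, which encodes a heavy chain of inter-alpha-trypsin inhibitor, was at 85.9, 103, 48.1 and 47.4 CPM (-0.97). Its mean was 951 CPM in astrocytes against 71.2 CPM in tanycytes. Osbp, a sterol-binding protein gene, was at 48.3, 42.4, 18 and 18.6 CPM (-1.29, and -0.72 with the block in sub-groups 1 to 4), and Siah3 was at 31.1, 28.6, 11 and 6.76 CPM (-1.66). Except in Cysltr1 and Dcc, the libraries of a genotype lay closer together than the genotypes did, which the choice of the 10 genes by p also favours.

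**Figure D4:**
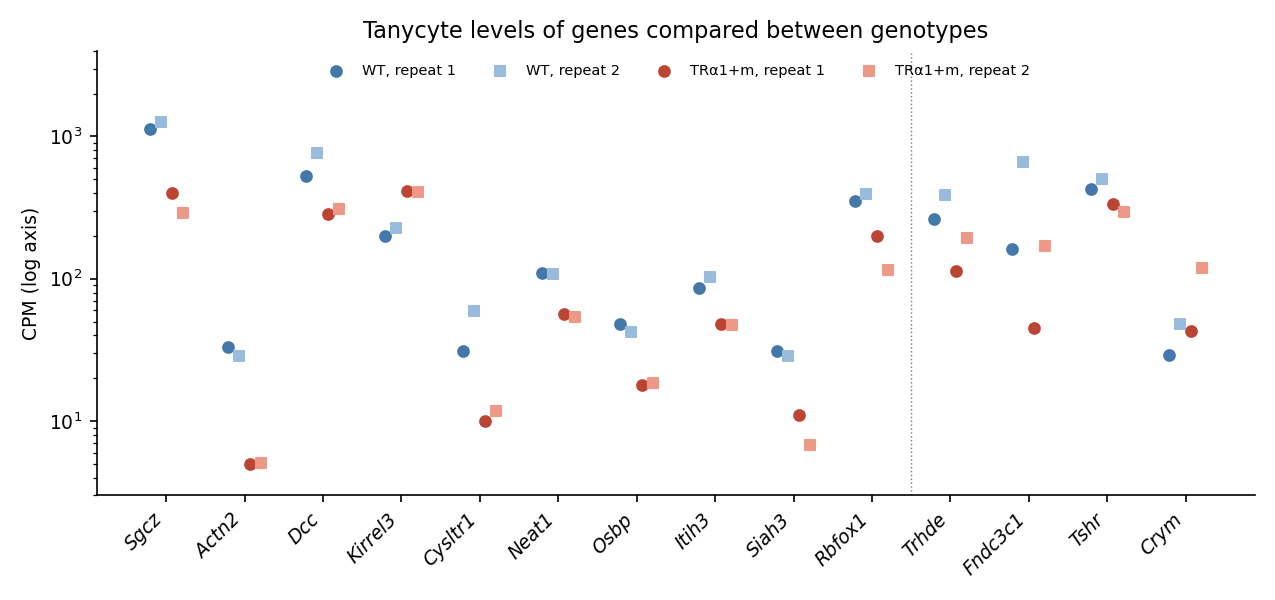
CPM on a log axis in tanycytes of the 4 libraries for the 10 genes with the smallest p between genotypes (left of the dotted line) and for 4 genes of tanycytes (right). The genotypes do not overlap in the 10 genes, which were chosen by p in the same libraries, while Fndc3c1 and Crym overlap.

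The fits were repeated on fewer nuclei. Removing the 1161 nuclei with at least 2 ependymal genes left the log2 fold change of Sgcz at -0.84 (edgeR adjusted p = 0.999, and 0.647 with the block), and Fndc3c1 and Nkain2 were then the only 2 genes called with the block, of 3804 genes tested. In the same nuclei the unblocked log2 fold changes of Dcc (-1.18), Kirrel3 (1.23), Cysltr1 (-1.96), Rbfox1 (-1.48), Trhde (-1.22) and Tshr (-1.28) kept their direction, with edgeR adjusted p between 0.895 and 0.999. Ependymal genes summed to 976 CPM in sub-group 3 and to 2930, 2707 and 3405 CPM in sub-groups 1, 2 and 4. The removal can thus change the mix of sub-groups, which was not tested. Sgcz averaged 166 CPM in sub-group 3 and 2723 CPM in sub-group 4. Of the 54 genes called with the block, 37 did not overlap between genotypes (25.8% of all genes), 26 were also called between repeats (14.1% of all genes) and 14 were also called with the block in astrocytes, where 245 of 14072 genes passed (1.74%, with 1.04% higher and 0.696% lower). Among the 54, chosen for mention after their values were seen, Sgcd, which encodes another sarcoglycan, was at 581, 485, 378 and 325 CPM (log2 fold change -0.59), and Ptprd, a receptor phosphatase gene of synapse formation, was at 1636, 1635, 1061 and 1026 CPM (-0.64). Gria1, a subunit gene of AMPA receptors, was at 340, 517, 196 and 266 CPM (-0.88), and Robo2, a guidance receptor gene, was at 138, 133, 84.2 and 71 CPM (-0.79). These 4 genes did not overlap between genotypes, and none of them was among the 3 genes called by DESeq2 with the block, which were Sgcz, Dcc and Fndc3c1.

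Among the genes of the thyroid axis, Trhde lies on chromosome 10 at 114398823 to 114802307 (minus strand) and was lower in both TRα1+m libraries, with the values given above (log2 fold change -1.08, SE 0.32, edgeR adjusted p = 1 without and 4.98e-07 with the block, and 0.27 in DESeq2 with the block). In astrocytes it was at 13.4, 9.49, 18.4 and 7.28 CPM, with overlap between genotypes. Tshr, on chromosome 12 at 91384563 to 91549808, was also lower in both TRα1+m libraries (-0.54, edgeR adjusted p = 0.0641 with the block). Crym was called higher with the block (log2 fold change 1.03 without and 1.02 with it, edgeR adjusted p = 0.0266), although the lower TRα1+m value lay between the 2 wild-type values. The call was absent in DESeq2 with the block (adjusted p = 1), among nuclei of at most 5000 UMIs (0.15 in edgeR with the block) and without nuclei with 2 oligodendrocyte genes (0.12), and the log2 fold change was 0.19 without TRα1+m repeat 2. Of 15 genes for transport and metabolism of thyroid hormone, 8 passed the filter on low counts. Of these, Crym was called higher and Trhde lower with the block (0.205 and 0.276% of all genes were). The median log2 fold change of the 8 was -0.04 beside 0.01 over all genes. The receptor genes Thra and Thrb were at 159, 209, 141 and 99.8 CPM and at 338, 387, 225 and 308 CPM, both lower without overlap, and neither was called with the block (edgeR adjusted p = 0.143 and 0.208). In their list of receptors and cofactors 3 genes were lower and 3 higher without overlap, beside 14.1 and 11.6% of all genes. None of 13 receptors and cofactors tested of 14 was called, and none of 8 tested of 16 response genes, whose median was -0.32. Klf9, a direct target of the receptor, was at 114, 116, 90.2 and 98.1 CPM (edgeR adjusted p = 0.752 with the block).

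Other genes of tanycytes varied in the same comparison. Fndc3c1 had a log2 fold change of -1.93 (edgeR adjusted p = 1 without and 4.09e-16 with the block, and 1.41e-06 in DESeq2 with the block), and its libraries overlapped between genotypes, with repeat 2 the higher in both. The value was -0.65 without wild-type repeat 2, -1.26 without TRα1+m repeat 1, -2.60 without wild-type repeat 1 and -3.12 without TRα1+m repeat 2. Fgf10, a beta tanycyte and neural stem cell gene, was at 315, 354, 189 and 259 CPM (-0.57, adjusted p with the block 0.0473 in edgeR and 1 in DESeq2, and 0.0847 to 0.782 in edgeR on each of the 5 smaller sets of nuclei). Fabp7, the brain fatty acid binding protein of radial glia, was at 59, 45.3, 138 and 62.6 CPM (0.98, adjusted p with the block 0.0148 in edgeR and 1 in DESeq2, and 0.0745 in edgeR among nuclei of at most 5000 UMIs), which was 0.24 without TRα1+m repeat 1, and in astrocytes its log2 fold change with the block was 0.91 (edgeR adjusted p = 5.33e-09). Of the 16 identity genes 15 were tested, with 2 called higher and 1 lower with the block (0.205 and 0.276% of all genes) and a median of 0.24. Of 8 beta genes Fgf10 was the only one called with the block (0.276% of all genes were called lower). None of 5 tested of 6 alpha genes was called (median -0.85). Of the alpha genes Cd59a, Slc17a8 and Nr2e1 were lower without overlap (14.1% of all genes) and Slc7a11 was higher without overlap, at 263, 303, 328 and 331 CPM (11.6% of all genes). None of 14 ependymal genes was called, and their median was 0.45. Among 21 tested of 24 neural stem and Notch genes Fgf10 was the only one called (0.276% of all genes were called lower), with a median of 0.04. None was called among 7 tested of 13 retinoic acid genes, 10 of 21 nutrient and hormone sensing genes, 9 of 15 barrier genes, 2 of 10 proliferation genes, 13 of 13 mitochondrially encoded genes and 3 of 10 immediate early genes, with medians of -0.08, 0.12, -0.12, 0.10, -0.14 and 0.04. Nor was any of the tested genes of astrocytes, neurons, oligodendrocytes and their precursors, microglia, vessels, leptomeninges and pituitary.

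The genes were then resolved by sub-group. Sgcz was highest in alpha-like sub-group 4, at 3607, 4499, 1622 and 1165 CPM, and followed in sub-group 1 at 1141, 1404, 319 and 202 CPM. In sub-group 2 it was at 519, 310, 232 and 149 CPM, and in sub-group 3 at 104, 159, 233 and 167 CPM, with both TRα1+m values above both wild-type values. Rbfox1 in sub-group 4 was at 1025, 1198, 405 and 295 CPM, with log2 fold changes of -1.24, 0.26, -0.15 and -1.63 in sub-groups 1 to 4. Both genes were thus lower in the TRα1+m libraries within the sub-group where their levels were highest. Dcc was lower without overlap in each of sub-groups 1 to 4, at 1367, 1123, 907 and 549 CPM in sub-group 3, with log2 fold changes of -0.55, -1.04, -0.75 and -1.24 in sub-groups 1 to 4. None of these was called by edgeR without the block, and sub-group 4 alone was with it (adjusted p = 0.0215). Trhde in beta-like sub-group 3 was at 680, 815, 350 and 358 CPM, and in sub-group 2 at 246, 274, 113 and 136 CPM. In sub-group 1 it was at 121, 112, 66.4 and 101 CPM and in sub-group 4, with overlap, at 119, 53.2, 47.7 and 164 CPM, with log2 fold changes of -0.53 (SE 0.36), -1.03 (0.32), -1.05 (0.23) and 0.09 (0.61) in sub-groups 1 to 4. Tshr in sub-group 3 was at 541, 553, 162 and 160 CPM, and in sub-group 1 at 570, 602, 498 and 457 CPM, with log2 fold changes of -0.30, -0.34, -1.73 and -0.43 in sub-groups 1 to 4. Fndc3c1 in sub-group 3 was at 819, 1925, 368 and 500 CPM. Trhde, Tshr and Fndc3c1 did not overlap between genotypes in beta-like nuclei, although Fndc3c1 did in the sum over all tanycyte nuclei. In that sum 14.1% of all genes were lower without overlap, and the share within each sub-group is not given here. Fitted alone in edgeR, sub-group 1 gave 1 call of 5043 genes (0.0198%), which was Sgcz (log2 fold change -2.27, SE 0.26, adjusted p = 0.0208), and 3 (0.0595%) with the block, which were Sgcz, Col25a1 and Ptprd. Sub-groups 2, 3 and 4 gave 0 of 4247, 3646 and 3522 genes, and with the block 0, 0 and 17 (0.483% in sub-group 4). Tshr in sub-group 3 had an adjusted p of 0.361 in edgeR, and the difference between sub-groups was not tested. In the clustering without the 175 genes, Sgcz was at 3379, 4086, 1514 and 1141 CPM in the cluster matching sub-group 4, and Tshr was at 621, 555, 154 and 170 CPM in that matching sub-group 3.

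**Figure D5:**
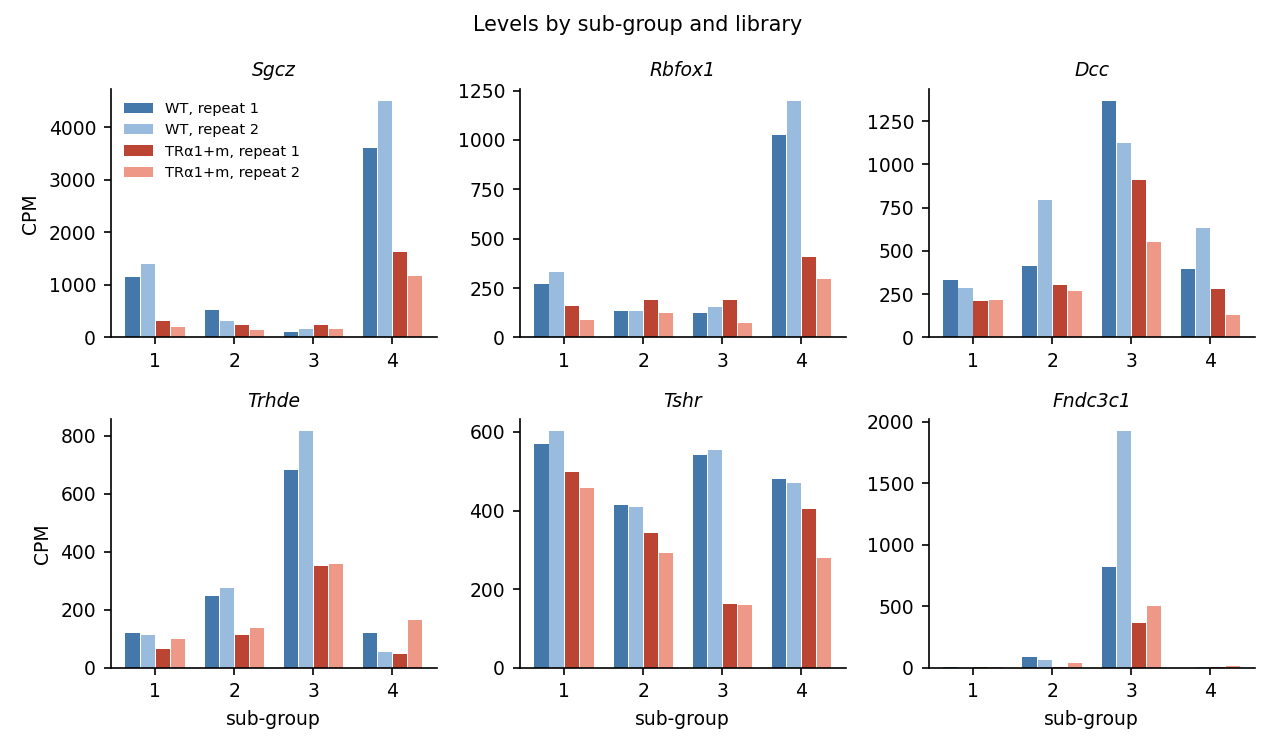
CPM of 6 genes (panels) in sub-groups 1 to 4 of tanycyte nuclei, a bar per library. Sgcz and Rbfox1 are highest in sub-group 4, Dcc, Trhde and Fndc3c1 in sub-group 3, and Tshr in sub-group 3 is at 541 and 553 CPM in wild-type and at 162 and 160 CPM in TRα1+m libraries.

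The genotype effect was then compared between tanycytes and astrocytes of the same libraries. edgeR with the library as a block called 1 of 14160 genes (0.00706%), Sgcz, whose log2 fold change was lower in tanycytes by a difference of -1.42 (SE 0.20, adjusted p = 0.0349). In astrocytes Sgcz was at 148, 162, 143 and 100 CPM (log2 fold change -0.34), with the lowest value in the second TRα1+m library. The call was lost when either wild-type library was left out, in DESeq2 (adjusted p = 0.639) and in the bias-adjusted edgeR fit (0.111). The difference itself was -1.45 and -1.40 without wild-type repeats 1 and 2, -1.41 in DESeq2 and -1.42 in the bias-adjusted fit.

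To show regulatory sequence of the genes called with the block, promoters from RefSeq on GRCm38.p6 were searched for AGGTCA, the half-site that nuclear receptors such as TRα1 bind, on either strand (TGACCT on the other strand). Of the 54 genes 38 matched, with 54 windows of 300 bases (250 before and 50 after the start of transcription), and 5 of these windows (9.26%) held the half-site, those of Actn2, Ano5, Fabp7, Lmntd1 and Ndufa11, against 5340 of 32851 windows of all genes (16.3%). The direct repeat of the half-site with 4 bases between its copies was in 5 of all windows and in 0 of the 54. Shown are the 250 bases before the start, with the half-site in capitals, for Actn2 and Fabp7, the 2 genes with a half-site whose values are described above, and for Trhde, whose window holds none. The regions are chr13:12340733-12340982 on the minus strand, chr10:57784673-57784922 on the plus strand and chr10:114802303-114802552 on the minus strand, each written in the direction of the gene.
Actn2: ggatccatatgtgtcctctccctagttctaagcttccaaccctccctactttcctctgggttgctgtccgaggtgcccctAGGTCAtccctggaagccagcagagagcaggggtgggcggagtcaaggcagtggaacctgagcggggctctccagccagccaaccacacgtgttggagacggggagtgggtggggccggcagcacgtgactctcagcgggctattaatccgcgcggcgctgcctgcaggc
Fabp7: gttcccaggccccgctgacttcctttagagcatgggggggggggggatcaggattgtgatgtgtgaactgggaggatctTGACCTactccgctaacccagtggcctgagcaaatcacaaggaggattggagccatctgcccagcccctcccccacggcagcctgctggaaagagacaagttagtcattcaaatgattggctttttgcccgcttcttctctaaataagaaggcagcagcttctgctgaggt
Trhde: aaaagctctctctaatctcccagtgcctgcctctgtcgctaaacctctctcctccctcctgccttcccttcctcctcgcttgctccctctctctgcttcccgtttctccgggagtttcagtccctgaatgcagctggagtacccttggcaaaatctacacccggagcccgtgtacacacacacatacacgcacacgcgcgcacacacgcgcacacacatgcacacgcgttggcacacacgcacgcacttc
The half-site begins 170 bases before the start in Actn2 and 171 bases before it in Fabp7, where it is on the other strand. A match says only that these letters are present, and binding was not measured.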

How the data were processed

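The authors counted unique reads per gene and nucleus with Cell Ranger 5.0.1, introns included, on their mm10 reference (GRCm38), pooled 3 mice per library, removed nuclei by counts, features, mitochondrial share and scrublet doublet score, and annotated clusters in Seurat, with batch correction between repeats for sub-clusters. The deposited values are whole-number UMI counts without normalisation, and the deposited annotation was used as given. Counts of tanycyte nuclei were summed per library, and the library was the replicate. Genes that passed filterByExpr were tested in edgeR 4.0.16 (R 4.3.3) by robust two-sided quasi-likelihood F-tests with TMM normalisation and Benjamini-Hochberg adjustment over all genes tested. By the study's methods both genotypes were processed in each repeat, and repeat differences of the genotypes correlated (Pearson r 0.577 across 11217 genes, which are not independent), so the repeat was also fitted as a block. Levels are CPM on the total of each sum. Sub-groups used 2000 variable genes, 15 components, 15 neighbours and a resolution of 0.5 (leidenalg 0.10.2, scikit-learn 1.9.0, Python 3.11.15), and a ratio between sub-groups adds 1 CPM. Gene positions came from GENCODE on GRCm38. Genes were named as the 10 with the smallest p in the same direction in both repeats, the 4 most abundant members of a list and any member called, the 20 with the largest ratio to astrocytes at 50 CPM or more, genes called in the interaction, genes the study names for genotype, and the leading genes of sub-groups; others were named after their values were seen, and some genes are not reported here. The members, the 23 gene lists and the tests were chosen with earlier results of these data known. Alternatives were DESeq2 1.42.0, RLE factors, no filter, a bias-adjusted fit, the block, each library left out, equal numbers of nuclei, and sets without nuclei holding ependymal or oligodendrocyte transcripts; fits restricted to sub-groups or to 5000 UMIs were added after seeing the data. The scripts were tested on simulated data.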

Additional observations from a re-analysis of the deposited data

Results flagged for a closer look

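Sgcz had a different genotype effect in tanycytes than in astrocytes, with a difference in log2 fold change of -1.42 (TRα1+m relative to wild type, edgeR adjusted p = 0.0349 for the interaction, n = 2 libraries per genotype). It was the only gene of 14160 that passed this test, and 418 had an unadjusted p below 0.05. In every alternative run the difference for Sgcz lay between -1.45 and -1.40. Across RLE factors, no filter on low counts and either TRα1+m library left out the adjusted p lay between 2.62e-08 and 0.0395, whereas the call was lost with the repeat in place of the library as the block (0.43), in DESeq2 (0.639), in the bias-adjusted fit (0.111) and without either wild-type library (1 and 1).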

How the results depend on the processing

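The number of genes called between genotypes rested on the block and on the nuclei included. Against 0 genes without a block, edgeR called 7 without the filter on low counts and 54 with the replicate block, and DESeq2 with the block called 3, all of them among the 54. With the block, edgeR called 61 in the bias-adjusted fit, 72 with equal numbers of nuclei (39 shared with the 54, or 54.2% of the 72 and 72.2% of the 54), 35 in sub-groups 1 to 4 (30 shared, 85.7 and 55.6%), 20 among nuclei of at most 5000 UMIs (19 shared, 95 and 35.2%), 23 without nuclei with 2 oligodendrocyte genes and 2 without nuclei with 2 ependymal genes. Sub-group 1 alone gave 1 call and, with the block, 3, and sub-group 4 with the block gave 17. Leaving out each library gave 0 to 0 calls. The interaction with astrocytes, 1 call, became 0 in DESeq2, in the bias-adjusted fit and with the replicate block in place of the library block, and 16 without the filter. It ranged from 0 to 7 when a library was left out (0 without either wild-type library, 5 and 7 without TRα1+m repeat 1 and 2). Calls between repeats, 1583, became 297 in DESeq2 and 676 in sub-groups 1 to 4. The log2 fold change of Pmch turned to 0.15, or 0.13 with the block, without nuclei with 2 ependymal genes. The share of tanycytes kept its direction under every alternative run, with a log2 fold change of -0.40 to -0.15 when a library was left out. Within the main cluster of astrocytes, tanycytes took 17, 17.3, 14.9 and 13.2% of nuclei (exact permutation p = 0.333). The log2 fold change there was -0.27 (SE 0.07, edgeR adjusted p = 0.0878). The causes of these changes were not tested. Fits without 1 library assume that the lone library varies like the other group. The clusters numbered 6 at a resolution of 0.3, 8 at 0.8 and 7 without centring. Genes near 10 CPM rest on a few UMIs per library, so a missed call does not show that their levels were alike.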

Other observations

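Transcripts of Pmch, Oxt and other neuropeptides of neurons were present in these nuclei. Pmch, the precursor of melanin-concentrating hormone, was at 1009, 599, 521 and 304 CPM (log2 fold change -0.96, edgeR adjusted p = 1 without and 1.65e-06 with the block, and 0.079 in DESeq2 with the block), and at 610, 869, 776 and 690 CPM in astrocytes. Without nuclei with 2 ependymal genes its log2 fold change was 0.15, and 0.13 with the block. With all nuclei it was -0.48 without wild-type repeat 1, -0.61 without TRα1+m repeat 2, -1.31 without wild-type repeat 2 and -1.43 without TRα1+m repeat 1. In sub-group 3 Pmch was at 3226, 602, 655 and 500 CPM, on 465, 186, 73 and 81 UMIs. The first value, from 58 nuclei of wild-type repeat 1, stood apart, and the genotypes overlapped there. In sub-group 4 Pmch was at 631, 399, 533 and 312 CPM, also with overlap. Pmch was the only one of 10 neuropeptide genes called with the block (0.276% of all genes were called lower), and their median log2 fold change was -0.14. Oxt, the oxytocin precursor, was at 537, 115, 1932 and 57.5 CPM, and a single nucleus of TRα1+m repeat 1, in sub-group 3, held 1560 of the 1927 Oxt UMIs of its library. Without the nucleus richest in Oxt in each library the levels were 529, 112, 370 and 44.1 CPM. A UMI of Oxt was found in 66.9, 22.9, 53.9 and 9.96% of tanycyte nuclei and in 65, 18.3, 50.7 and 8% of oligodendrocytes of the same libraries, which places tanycytes near the level of a cell type that should lack the gene.

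Of the genes that the study names for genotype in other cell types, AC149090.1 was at 210, 180, 359 and 284 CPM in tanycytes (log2 fold change 0.73, edgeR adjusted p = 1 without and 0.0042 with the block, 0.0873 with it among nuclei of at most 5000 UMIs, 0.0636 without nuclei with 2 oligodendrocyte genes, and 1 in DESeq2 with the block). Without nuclei with 2 ependymal genes the log2 fold change of AC149090.1 was 0.26, or 0.29 with the block (edgeR adjusted p = 0.942 with it). The mitochondrial genes mt-Co3 and mt-Atp6 had log2 fold changes of -0.17 and -0.14, and Grm8 and Lrrtm4 of -0.64 and -0.32, none of them called with the block. Apoe, the apolipoprotein E gene, and Ecrg4, a secreted peptide precursor gene, were named after their values were seen. Ecrg4 was at 11.8, 42.4, 70.2 and 117 CPM without overlap between genotypes (edgeR adjusted p = 2.88e-07 with the block) and was not among the 3 genes called by DESeq2 with the block. Apoe was at 4716, 8009, 6214 and 14380 CPM with overlap (adjusted p with the block 0.0302 in edgeR, 0.247 with equal numbers of nuclei and 1 in DESeq2), and its log2 fold change of 0.71 was 0.005 without TRα1+m repeat 2.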
